A study of Mus musculus with 3 samples.

Results

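The 9 glycolysis enzyme genes described here are Hk1, Hk2, Pfkl, Pfkp, Aldoa, Tpi1, Pgk1, Pkm and Ldha, out of 8251 genes that have a probe set of their own on the array. They were found as the 13 probe sets whose only gene symbol in the platform annotation is 1 of these names, and no probe set with several symbols held a member. The samples were lung total RNA from B16-bearing mice (B16 is a mouse melanoma line), from LLC-bearing mice (Lewis lung carcinoma) and from normal mice as the control lung, hybridised to mouse arrays made by Affymetrix. The tumour cells had been placed under the skin of the back, which the submitters describe as a model of the lung before metastasis. Each of the 3 groups has 1 array, and the labels used here do not state mouse strain, age, time after injection or animals per sample. The differences below therefore describe 3 arrays, with no replicate spread, standard error or p-value.

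Glycolysis turns glucose into pyruvate in the cytosol, with a net gain of ATP, and lactate dehydrogenase can then reduce pyruvate to lactate. Hexokinase and phosphofructokinase catalyse early, ATP-consuming and regulated steps, while phosphoglycerate kinase and pyruvate kinase return ATP. Several of these genes are well-known targets of the hypoxia-inducible factors, and neutrophils, erythrocytes, fast muscle and many tumour cells depend strongly on the pathway.

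All 3 arrays carried lung RNA by their markers: the 9 lung marker genes on the array were above the floor on every array, and Sftpc, the surfactant protein C gene of type 2 alveolar cells, gave 7482 for the B16-bearing, 7296 for the LLC-bearing and 6206 for the control lung. A signal is a probe set's background-subtracted brightness, scaled by 1 factor per array (0.987, 1.01 and 1). The floor is the 40th percentile of all scaled values, a signal of 23.6, and a gene was measured in a comparison when at least 1 of its 2 arrays was above it. A gene above the floor on only 1 of the 2 arrays could only count as higher on that array. The counts of higher and lower genes below include such genes. Brightness depends on the probes, so levels are compared between arrays and not between genes. The 3'/5' ratio of the control probe sets was 1.20, 1.001 and 0.957 for Gapdh and 1.56, 1.47 and 1.44 for beta-actin in the same order of lungs, so both were highest in the B16-bearing lung. The part of RNA quality in the results below was not tested.

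Of the 9 genes, 8 were measured and 1, Hk2, was below the floor on all 3 arrays. In the B16-bearing lung 7 of the 8 lay above the control lung and 1 below it, with a median log2 difference of 0.19, or 1.14-fold. Over all 5968 genes measured in that comparison 49.4% were higher and 50.6% lower, and the median was −0.01. In the LLC-bearing lung 5 lay above the control and 3 below it, with a median of 0.17, or 1.12-fold, beside 49.9% higher, 50.1% lower and a median of −0.00072 over 6000 genes. Under quantile normalization Hk1, which lay close to the control, lay under it in both models, so that 6 and 4 of the 8 were higher. Both comparisons use the same control array, so they are not independent of each other. At least 1.5-fold different was 1 of the 8 in the B16-bearing lung (Pfkl, higher), where 23.1% of all measured genes were, 9.42% in the higher direction. In the LLC-bearing lung the count was 0 of 8, against 18.4% of all measured genes. At 2-fold the counts were 0 of 8 in both, against 7.96% and 6.93%. With both directions counted together these were smaller shares than among all measured genes. For the higher direction alone, 1 of 8 in the B16-bearing lung is a larger share than 9.42%. With 8 genes a single one decides such shares.

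**Figure D1:**
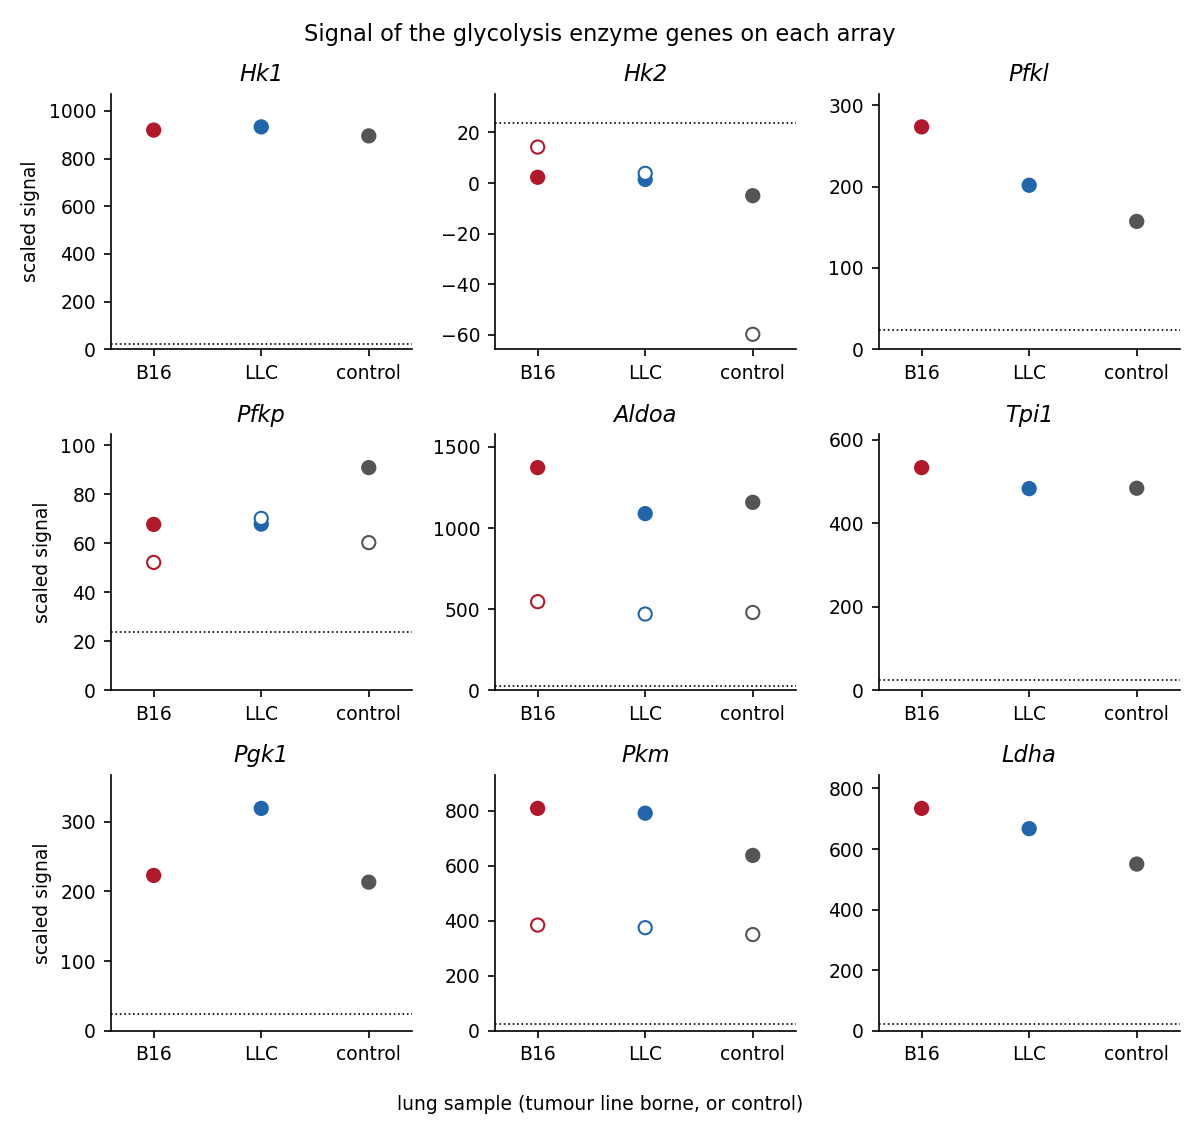
Scaled signal (vertical axis, linear) of each of the 9 genes in lungs of the B16-bearing, LLC-bearing and control group, 1 point per array. Filled points are the brightest probe set of a gene, open points its second probe set, and the dotted line is the floor of 23.6. Pfkl, Pkm and Ldha were lowest in the control lung, Pgk1 was highest in the LLC-bearing lung, and Hk2 lay below the floor throughout.

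The promoter windows of 4 genes are printed here by the place of their genes among the members: Pfkl was the farthest above the control in the B16-bearing lung, Pgk1 the farthest above it in the LLC-bearing lung, and Pfkp the farthest below it in both, though within the robust SD of like-bright genes. Ldha was added after its window was seen, as the one with the most matches. The windows are RefSeq sequences of build GRCm38.p6 from 250 bases before to 50 bases after the gene start, 300 bases in all, written along the gene's own strand. Capitals mark the cores of the hypoxia response element, ACGTG or GCGTG, on either strand, so CACGT and CACGC are in capitals as well.
Pfkl, chr10:78009758-78010057, minus strand: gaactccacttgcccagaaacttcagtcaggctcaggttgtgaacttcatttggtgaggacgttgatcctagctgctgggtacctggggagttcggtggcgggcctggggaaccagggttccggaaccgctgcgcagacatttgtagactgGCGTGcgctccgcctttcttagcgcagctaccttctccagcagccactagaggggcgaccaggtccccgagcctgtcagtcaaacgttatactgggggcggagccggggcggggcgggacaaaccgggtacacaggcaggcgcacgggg
Pfkp, chr13:6648722-6649021, minus strand: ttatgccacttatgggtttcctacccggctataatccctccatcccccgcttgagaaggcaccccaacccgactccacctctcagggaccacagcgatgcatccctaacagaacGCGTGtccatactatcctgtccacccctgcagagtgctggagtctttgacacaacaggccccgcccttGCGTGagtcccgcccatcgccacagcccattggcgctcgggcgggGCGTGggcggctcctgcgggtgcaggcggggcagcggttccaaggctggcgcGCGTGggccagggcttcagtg
Pgk1, chrX:106186850-106187149, plus strand: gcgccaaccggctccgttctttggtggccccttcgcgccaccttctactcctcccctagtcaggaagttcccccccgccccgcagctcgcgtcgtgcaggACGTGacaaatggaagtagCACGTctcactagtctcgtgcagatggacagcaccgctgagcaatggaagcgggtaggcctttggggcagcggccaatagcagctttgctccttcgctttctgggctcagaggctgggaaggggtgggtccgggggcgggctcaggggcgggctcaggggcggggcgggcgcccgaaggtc
Ldha, chr7:46845554-46845853, plus strand: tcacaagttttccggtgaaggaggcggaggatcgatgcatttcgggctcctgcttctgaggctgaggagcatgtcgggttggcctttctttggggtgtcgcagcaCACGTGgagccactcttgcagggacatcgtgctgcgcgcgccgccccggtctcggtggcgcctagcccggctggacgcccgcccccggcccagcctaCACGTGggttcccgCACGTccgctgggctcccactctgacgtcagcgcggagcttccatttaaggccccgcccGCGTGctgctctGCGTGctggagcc

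The 9 genes had 14 such windows, since Hk1, Aldoa, Pkm and Ldha have more than 1 annotated start. ACGTG was present on either strand in 7 of the 14 (50%), belonging to Aldoa, Hk1, Hk2, Ldha, Pgk1 and Pkm, against 19.6% of all 32851 windows of this length. The Pgk1 window holds it 150 and 131 bases before the start, and the Ldha window printed above holds it at 3 places. At 2 of these the letters read CACGTG, where the matches of both strands overlap, so that 5 matches were counted. GCGTG was present in 5 windows (35.7%), against 32.4% of all windows. The printed windows of Pfkl and Pfkp hold GCGTG but not ACGTG, once for Pfkl, 99 bases before the start, and at 4 places for Pfkp. GGGCGG, the core of the GC box, was present in 9 windows (64.3%), against 35.7% of all windows. The windows of the 9 genes had a median GC content of 64% (51.3% to 67.3%), against 52.7% over all windows, and the part of base composition in these shares was not tested. The 2 Aldoa windows with a match overlap and share 1 site, and a match is a run of letters, not evidence of binding.

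Hexokinase commits glucose to the cell by phosphorylating it. Hk1, the broadly expressed isozyme, gave a signal of 919 for the B16-bearing, 933 for the LLC-bearing and 895 for the control lung. The lungs were within 1.04-fold of each other, with log2 differences from the control of 0.04 and 0.06, which quantile normalization turned to −0.04 and −0.02. Hk2, the isozyme of insulin-sensitive tissues and of many tumours, had 2.27, 1.42 and −5.0 on 1 probe set and 14.2, 3.84 and −59.8 on the other, in the same order of lungs. All 6 values were below the floor, so no difference is given for it.

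Phosphofructokinase makes fructose 1,6-bisphosphate and sets much of the pathway's rate. Pfkl, the liver-type subunit, gave a signal of 273 for the B16-bearing lung and 202 for the LLC-bearing lung, against 157 for the control lung. It exceeded the control 1.74-fold and 1.28-fold, log2 differences of 0.80 and 0.36, and the B16-bearing lung exceeded the LLC-bearing lung 1.36-fold. Of the 2443 genes with a mean signal within 2-fold of Pfkl, 7.37% lay at least as far from 0 in the B16-bearing lung against control, and the robust SD of their differences was 0.38. In the LLC-bearing lung 27.5% of such genes differed by as much as Pfkl, whose 0.36 was a little beyond their robust SD of 0.30.

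Pfkp, the platelet-type subunit, was the only measured member below the control in the B16-bearing lung. Its brighter probe set gave 67.6 for the B16-bearing and 67.8 for the LLC-bearing lung, against 90.8 for the control lung, 1.34-fold lower in both (−0.43 and −0.42). Its second probe set had 52.1 and 70.1 against 60.2, so there the LLC-bearing lung was higher (0.22) and the B16-bearing lung lower (−0.21). The probe sets disagree for the LLC-bearing lung, and Pfkp was the dimmest of the 8 measured members, where the robust SD of genes of like brightness was 0.52 and 0.42.

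Aldolase splits fructose 1,6-bisphosphate and triose phosphate isomerase interconverts the products. Aldoa, the muscle and general aldolase, gave 1373 for the B16-bearing and 1089 for the LLC-bearing lung, against 1159 for the control lung (0.24 and −0.09). Its second probe set had 546 and 470 against 479 (0.19 and −0.03), the same directions. Both carry a mark in the name for probes shared within a sequence family, so related transcripts may add to them. Tpi1 had 533 and 483 against 484, differences of 0.14 and −0.0028. In the B16-bearing lung both genes were slightly above the control, and in the LLC-bearing lung they lay at it or slightly under it.

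Pgk1, the X-linked phosphoglycerate kinase, carries out the first ATP-yielding step. It gave 223 for the B16-bearing and 319 for the LLC-bearing lung, against 213 for the control lung. The LLC-bearing lung alone was high, 1.496-fold above the control (0.58), just short of the 1.5-fold size, and the B16-bearing lung was near the control (0.06). Of 2217 genes within 2-fold of its signal 10.6% differed by as much between the LLC-bearing and control lung. Between the models Pgk1 was lower in the B16-bearing lung (a log2 difference of −0.52), and 17.9% of such genes lay at least as far from 0.

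Pkm encodes the M1 and M2 pyruvate kinases, which arise by alternative splicing and cannot be told apart by these values. Its brighter probe set gave 808 for the B16-bearing and 791 for the LLC-bearing lung, against 637.5 for the control lung (0.34 and 0.31). The second had 384 and 375 against 350.0 (0.14 and 0.10), so both probe sets put the control lowest, by differing amounts. Both carry a mark in the name, the second the same as those of Aldoa and the brighter a different one, so related transcripts may add to them as well. Ldha, the lactate dehydrogenase subunit that favours lactate formation, had 734 and 667 against 550.4, which is 1.33-fold and 1.21-fold higher (0.42 and 0.28). Genes within 2-fold of the Ldha signal had robust SDs of 0.30 and 0.24, and 21.3% and 27.8% of them differed by at least as much.

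**Figure D2:**
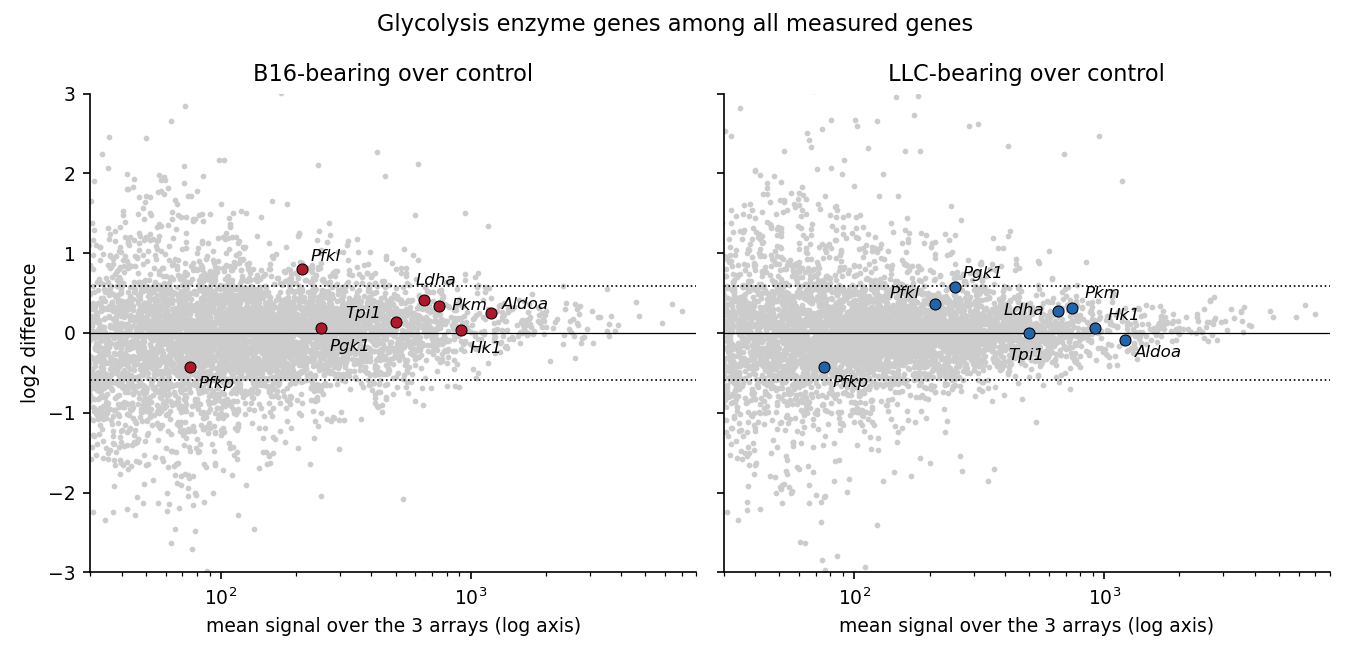
Log2 difference from the control lung (vertical axis) against the mean signal over the 3 arrays (horizontal log axis) for all measured genes in grey and the 8 measured members in colour, with dotted lines at 1.5-fold. Pfkl in the B16-bearing lung is the only member outside the lines; 577 and 609 genes lie outside the axes of the panels.

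Set against genes of like brightness, the differences were modest. In the B16-bearing lung 3 of the 8 measured members (Pfkl, Pkm and Ldha) were farther from 0 than the robust SD of genes within 2-fold of their signal, and in the LLC-bearing lung 4 (Pfkl, Pgk1, Pkm and Ldha). Of those like-bright genes 33.7% to 36.0% were as well in the B16-bearing lung and 32.5% to 36.8% in the LLC-bearing lung, so 3 or 4 of 8 is near the usual share. Pkm is among them by its brighter probe set only. Its second probe set (0.14 and 0.10) and the mean of both (0.24 and 0.21) were smaller than the robust SDs used for it, 0.30 and 0.25. Between the models it was 3 of 8 (Pfkl, Aldoa and Pgk1), beside 30.7% to 35.1%. The members' mean signals ran from 75.4 to 1207. Of the genes in that range, 51.2% were higher than control for the B16-bearing lung and 49.4% for the LLC-bearing lung, and 17.6% and 12.2% were at least 1.5-fold different. For the B16-bearing against the LLC-bearing lung, 5 members were higher and 3 lower (median 0.08; 7 higher and 1 lower under the 2 scalings that move Hk1 and Pfkp across 0) beside 47.7% higher and 52.3% lower among all 5984 genes. There 0 of 8 were 1.5-fold different, against 22% of all genes, and 0 of 8 were 2-fold different, against 8.34%. Pfkl (0.44) and Aldoa (0.33) were the farthest above the LLC-bearing lung and Pgk1 the farthest below it.

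The other glycolysis enzymes did not follow 1 pattern either. Of 20 listed, 13 had a probe set of their own and 5 of these (Aldoc, Gapdhs, Pgk2, Pgam2 and Ldhc) were below the floor on every array. In the B16-bearing lung 6 of 8 measured were higher (median 0.24) and in the LLC-bearing lung 3 of 7 (median −0.09). Eno2, above the floor in the B16-bearing lung alone, could only count as higher there. Pklr, under the floor in the LLC-bearing lung, could only count as lower there. That second median rests on the dim genes and was 0.15 with the floor at the 60th percentile and 0.29 with a floor of 100. Adpgk, the ADP-dependent glucokinase, had the largest measured difference from control, with 155 for the B16-bearing and 122 for the LLC-bearing lung against 67.4 for the control lung (2.29-fold and 1.82-fold higher). For Pklr the LLC-bearing lung was lower by at least 1.80-fold, a bound that does not rank it against Adpgk. Bpgm, which makes 2,3-bisphosphoglycerate in red cells, had 221 and 324 against 193. Pgam1, a phosphoglycerate mutase, had 180 and 337 against 256, below the control in the B16-bearing lung (−0.51) and above it in the LLC-bearing lung (0.40).

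Pfkm, the muscle-type phosphofructokinase, gave 93.3 for the B16-bearing and 67.6 for the LLC-bearing lung, against 84.6 for the control lung. Eno3, the muscle enolase, had 117 and 137 against 153. Eno2, the neuronal enolase, gave 33.8 for the B16-bearing lung, at least 1.43-fold higher than the other lungs, where it did not pass the floor. Pfkm and Eno3 differed from the control by less than 1.5-fold. Pklr, the liver and red cell pyruvate kinase, gave 63.9 for the B16-bearing lung (1.51-fold higher), against 42.4 for the control, and did not pass the floor on the LLC-bearing array. Its other probe set did not pass the floor on any array. Ldhb, the subunit that favours pyruvate, had 345 and 265 against 282 (0.29 and −0.09), and its other probe set did not pass the floor either. Gapdh is represented by the manufacturer's 3', middle and 5' control probe sets, whose log2 differences were −0.03, 0.14 and −0.35 in the B16-bearing lung and 0.20, 0.20 and 0.14 in the LLC-bearing lung.

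**Figure D3:**
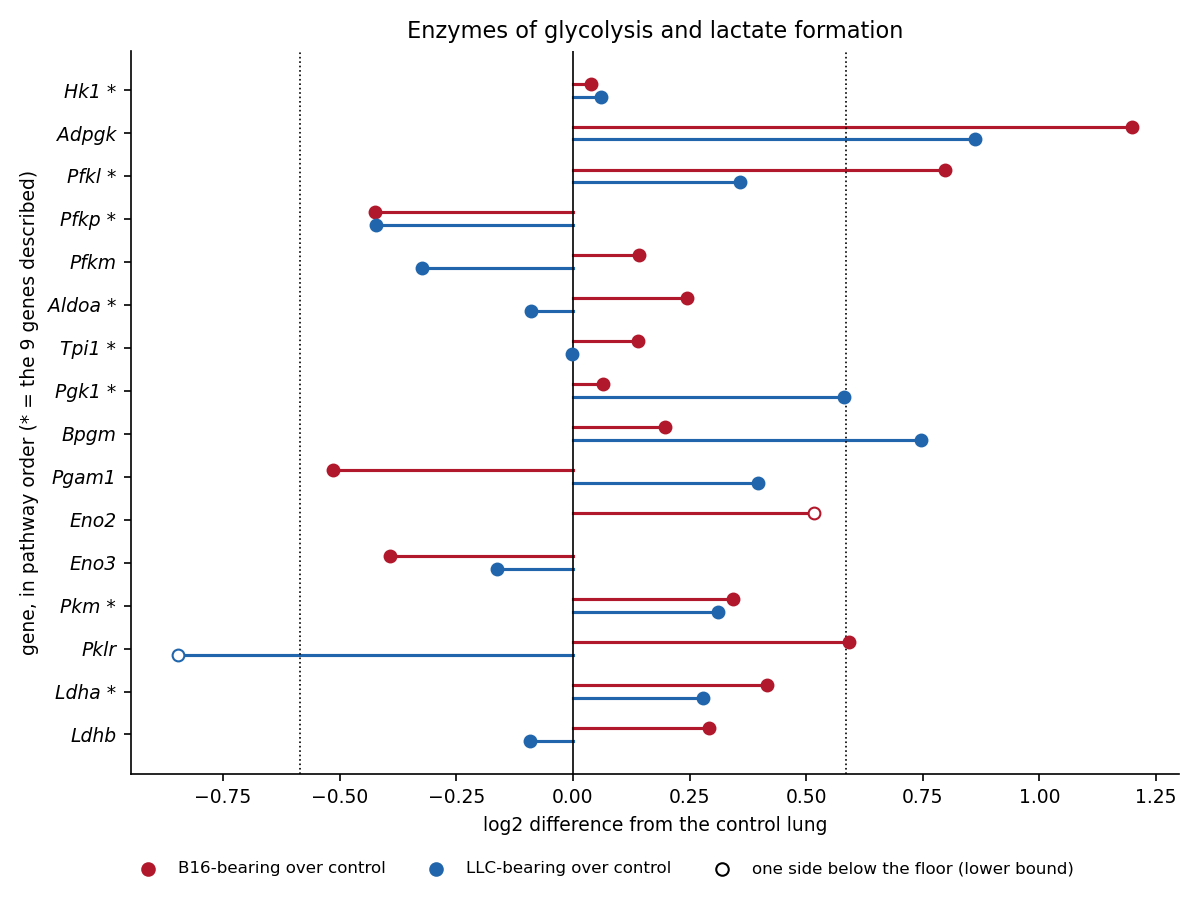
Log2 difference from the control lung (horizontal axis) of every measured enzyme gene, listed from glucose phosphorylation at the top to lactate dehydrogenase at the bottom, for the B16-bearing (red) and LLC-bearing lung (blue). Open points are lower bounds because 1 side was below the floor, and dotted lines mark 1.5-fold. Adpgk and Pfkl reach farthest above the control in the B16-bearing lung; Adpgk, Bpgm and Pgk1 do so in the LLC-bearing lung.

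Genes that feed or branch from the pathway were counted as a setting for these values. Of 12 measured genes of glucose and lactate transport and of glycolysis control, 3 were higher in the B16-bearing lung (median −0.23) and 5 in the LLC-bearing lung (median −0.11). Slc2a3, a high-affinity glucose transporter, had 36.9 and 115 against 49.3, so it was 1.23 above the control on the log2 scale in the LLC-bearing lung and −0.42 in the B16-bearing lung. Pfkfb3, which makes the phosphofructokinase activator fructose 2,6-bisphosphate, had 91.2 and 105 against 72.3. Pdhb, a subunit of pyruvate dehydrogenase, had 197 and 221 against 307, and Pdk1, a kinase that inhibits this complex, had 33.2 and 30.9 against 45.5. Slc2a1, the widely expressed glucose transporter, was below the floor on all 3 arrays.

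In the pentose phosphate pathway, which branches off after hexokinase, 3 of 9 measured genes were higher in the B16-bearing lung (median −0.11) and 7 of 9 in the LLC-bearing lung (median 0.34). Rpe, the ribulose phosphate epimerase, had 125 and 125 against 54.3. Rpia, the ribose phosphate isomerase, had 218 and 344 against 205, while Pgd, a dehydrogenase of the oxidative branch, had 47.0 and 102 against 64.9 and Tkt, the transketolase, 120 and 172 against 195. Of 19 citrate cycle genes, 10 were higher in the B16-bearing lung (median 0.0017) and 5 in the LLC-bearing lung (median −0.13). Sucla2, a subunit of succinyl-CoA ligase, had 195 and 163 against 271. Idh3a, a subunit of isocitrate dehydrogenase, passed the floor in the control lung alone (34.0). Mdh2, the mitochondrial malate dehydrogenase, had 504 and 462 against 667, and Sdha, a subunit of succinate dehydrogenase, 46.2 and 70.8 against 83.8.

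For gluconeogenesis and glycogen, 8 of 12 measured genes were higher in the B16-bearing lung (median 0.05) and 9 of 13 in the LLC-bearing lung (median 0.16). The floor set the direction of Pgm2 (lower) in the B16-bearing lung. In the LLC-bearing lung it set those of Fbp1 (higher) and Pygm (lower). Pcx, the pyruvate carboxylase, had 51.7 and 132 against 108 (−1.06 and 0.28). The manufacturer's 3', 5' and middle control probe sets for this gene lay above the control in the B16-bearing lung (0.61, 0.40 and 0.14), opposite to that −1.06. Their signals were low, from 40.8 to 82.7 over the 3 arrays. For the LLC-bearing lung they gave −0.27, 0.14 and 0.51, and another middle one was below the floor on every array. The direction for Pcx is thus not settled by these probe sets. Pgm2, a phosphoglucomutase, had 21.9 (under the floor) and 62.3 against 49.4. Gys1, the muscle-type glycogen synthase, had 200.1 and 86.3 against 115, and Pck1, which encodes the cytosolic phosphoenolpyruvate carboxykinase, 32.7 and 62.8 against 30.2. Hypoxia-responsive genes outside glycolysis had 8 of 14 higher in the B16-bearing lung (median 0.23) and 7 of 13 in the LLC-bearing lung (median 0.03). Adm, above the floor in the B16-bearing lung alone, could only count as higher there. Epo, the erythropoietin gene, had 48.8 and 23.7 against 95.3, below the control in both (−0.97 and −2.01), and its LLC-bearing value was barely above the floor. Ndrg1, a stress-induced gene, had 234 and 198 against 140 (0.74 and 0.50), while Ddit4, an inhibitor of the mTOR complex, had 120 and 259 against 246 (−1.03 and 0.07). P4ha2, a collagen prolyl hydroxylase, had 276 and 164 against 171. Higher and lower genes thus stood side by side in every list.

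**Figure D4:**
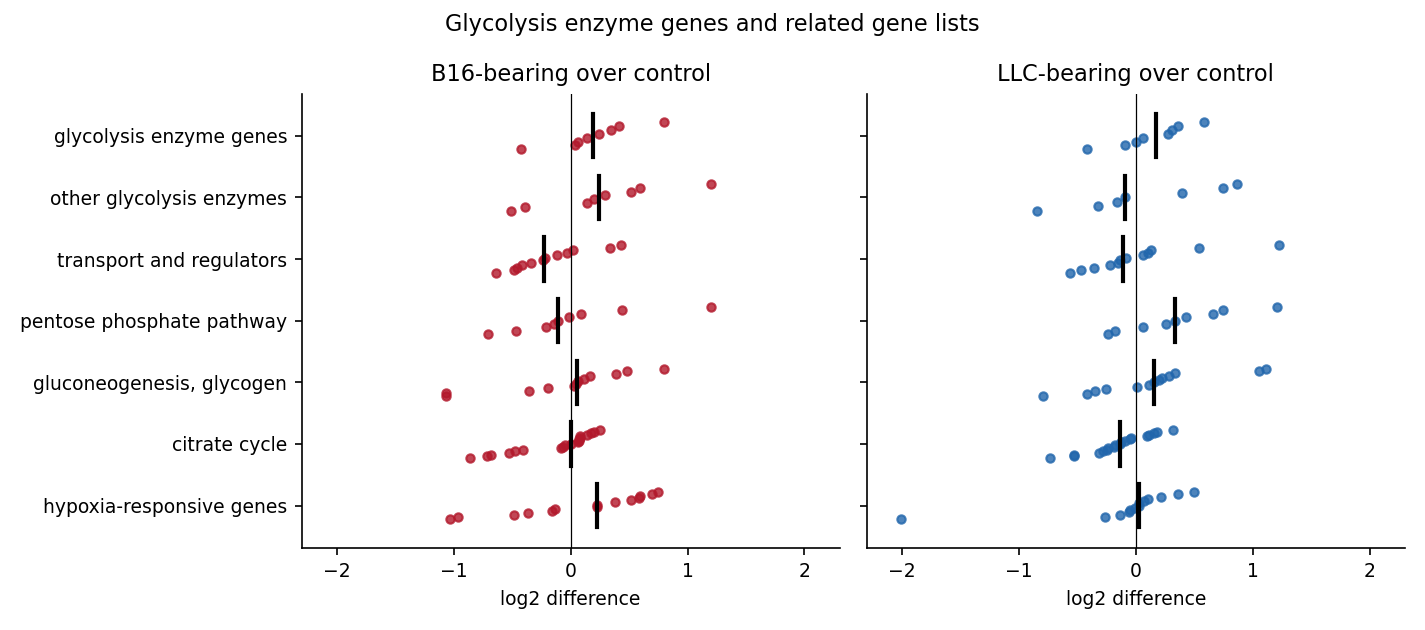
Log2 difference from the control lung (horizontal axis) of each measured gene of 7 lists (1 point per gene), in the B16-bearing and LLC-bearing lung. Black bars are list medians, 0.19 and 0.17 for the glycolysis enzyme genes; the points of every list lie on both sides of 0.

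Markers of several cell types, of which only some are known for strong glycolysis, also differed between the arrays. Summed signals are given as measured, values under the floor and below 0 included. Of 14 neutrophil markers on the array, 12 were measured and 12 were higher than control in each tumour-bearing lung. Mpo and Prtn3 among them were under the floor in the control lung, so they could only count as higher. The sums were 3078 (B16-bearing) and 4903 (LLC-bearing) against 1516 (control), with Ngp and Mmp8 below the floor throughout. All 4 measured erythroid markers were higher in both, with sums of 8219 and 8469 against 6246.5 and Epb42 below the floor. Of 16 measured striated muscle markers, 13 and 14 were lower, with sums of 1827 and 1360 against 3321. Ckmt2, Myl1, Tnnc1 and Mb passed the floor in the control lung alone, so they could only count as lower. The same holds for Pvalb in the LLC-bearing lung. This list mixes heart and fast muscle genes. The lower ones included the heart myosin Myh6 (−1.78 and −2.94) and the fast muscle calcium pump Atp2a1 (−1.02 and −1.11), whose probe set carries a mark in the name. Casq1 (0.27 and 0.75) and Casq2 (0.42 and 0.32) were higher in both. Tnnc2, the fast muscle troponin C, was slightly higher in the B16-bearing lung (0.09) and lower in the LLC-bearing lung (−0.49). Fast muscle genes thus did not share 1 direction. The fast muscle myosins Myh1 and Myh4, with Ckm and Acta1, were among the 8 below the floor on all arrays. Of 10 measured macrophage and monocyte markers, 2 lay above the control for the B16-bearing and 8 for the LLC-bearing lung, with sums of 3829 and 6018 against 5152, and Adgre1 and Marco below the floor throughout.

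Hepatocyte markers were high in the LLC-bearing lung, where 14 of 14 measured were above the control (summed signal 5535). The B16-bearing lung had a sum of 358, against 446 for the control lung, each with 11 of 16 genes under the floor. Those of the 14 under the floor in the control lung were measured through the LLC-bearing lung, so they could only count as higher. Apoa2, Serpina1b, Mup5, Cyp2e1 and Tdo2 passed the floor on both arrays and were higher in the LLC-bearing lung. The 6 melanocyte markers on the array, which the B16 line could carry, had summed signals of 240 and 421 against 238. In the B16-bearing lung 1 of 3 measured was higher, namely Tyr, which was under the floor in the control lung and could only count as higher. Tyrp1 and Mitf were below the floor on all arrays and Dct passed it only in the LLC-bearing lung (196), while Pmel gave 78.6 for the B16-bearing against 85.9 for the control lung. Summed signals were 856 and 984 against 1422 for lymphocyte, 8992 and 8226 against 7948 for endothelial, 5538 and 4703 against 4937 for fibroblast and smooth muscle, and 1266 and 1623 against 1392 for proliferation genes. Of 12 lymphocyte genes 6 (Cd22, Cd2, Cd8a and the Cd3 genes) were below the floor throughout. Of the 6 measured, 5 and 6 were lower, and Cd4 was higher in the B16-bearing lung (0.44). Endothelial genes were 6 higher and 5 lower in both lungs (medians 0.04 and 0.05). For fibroblast and smooth muscle, 8 and 5 of 12 were higher (medians 0.12 and −0.09). Of 15 measured proliferation genes 9 were higher in the B16-bearing lung, with a median of 0.07 although the sum was lower, and 11 in the LLC-bearing lung. The part of these cell types in the enzyme values was not tested, and in tissue RNA more cells of a type and more RNA per cell cannot be told apart.

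As a description of likeness, the 5 genes outside all lists whose pair of differences lay nearest to the members' medians (0.19 and 0.17), with mean signals in the members' range, were Slc23a3, Jarid2, Polr2m, Socs5 and Cyp21a1. Their Euclidean distances were 0.0026 to 0.0067 on the log2 scale, over 3 arrays. Such a pair of differences was common: 475 of 3590 genes lay at least as near to it as the nearest member, Tpi1, at 0.179.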

How the data were processed

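Total RNA of 3 lung samples was made into biotin-labelled cRNA and measured on Affymetrix arrays, per the labels' protocols. The authors' deposited values are linear intensity values for 12488 probe sets, from −722 to 7578.5; negative values show a background subtraction. Their mean without the lowest and highest 2% was 100.1 on each array, so the columns appear to share a scaling step that no label records. After 66 control probe sets were set aside, 12422 remained, of which 10833 have 1 symbol in GEO's platform annotation. Of the 13 member probe sets 13 matched a RefSeq gene ID.

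Each array got 1 factor, chosen so that over probe sets brighter than the median its median log2 ratio to the control was 0 (pandas 2.3.3, numpy 2.4.6). Values under the floor took its value on the log2 scale, the brightest probe set stood for a gene, and folds of 1.5 and 2 were counted. The robust SD is the scaled median absolute deviation. Precision is limited by the number of arrays. Scaling and folds were tested on simulated data with known changes. The alternatives tried were 3 other scalings, 3 other floors and 2 other choices of probe set. Genes other than members were named by rule: every measured glycolysis enzyme and up to 4 genes of each related list with the largest mean absolute difference from control. Slc2a1, Adm, Fbp1, Pygm and the marker genes were named after their values were seen. The members and lists were chosen with earlier results of these data known.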

Additional observations from a re-analysis of the deposited data

Results flagged for a closer look

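In 6 of the 15 glycolysis enzyme genes measured in both comparisons (40%) the B16-bearing and LLC-bearing lungs lay on opposite sides of the control lung, each with 1 array, so the difference between the models was not tested. The log2 differences were 0.24 and −0.09 for Aldoa, 0.14 and −0.0028 for Tpi1, 0.14 and −0.32 for Pfkm, −0.51 and 0.40 for Pgam1, 0.59 and −0.85 for Pklr, and 0.29 and −0.09 for Ldhb. The LLC-bearing value of Tpi1 is close to 0, and that of Pklr is a bound set by the floor. Among all 5821 genes measured in both comparisons, which share the control array, 32.3% lay on opposite sides, so the count is given as a description and not as a result about these enzymes.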

How the results depend on the processing

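A median or difference counted as moved when it shifted by 0.1 or more on the log2 scale. Of 182 recomputed member differences 177 moved by less, 5 moved and 0 of those past 1.5-fold turned; of 48 recomputed member medians and counts 44 held and 4 moved. The Pfkl difference in the B16-bearing lung ran from 0.80 to 0.82 and Pgk1 in the LLC-bearing lung from 0.56 to 0.58, so their sides of 1.5-fold held under every alternative tried. The members' median in the B16-bearing lung ran from 0.10 to 0.24. In the LLC-bearing lung it ran from 0.11 to 0.28, with 0.28 at a floor of 100, which drops Pfkp, and 0.28 with no floor, which adds Hk2. With no floor, Hk2 values near or below 0 also made the 1.5-fold counts 2 in the B16-bearing lung against control and 1 between the models. Averaging probe sets moved Pfkp to −0.32 and −0.10 in the B16-bearing and LLC-bearing lung, and Pkm to 0.24 and 0.21. Without marked probe sets Aldoa and Pkm drop out and 6 members are measured. Hk1 lay within 0.06 of the control under every alternative and changed sides under quantile normalization (−0.04 and −0.02). No paired analysis was possible because each group has 1 array, and no array can be left out for the same reason.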
